A study of Rattus norvegicus with 12 samples.

Results

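The genes described here encode the machinery of oxidative phosphorylation: the subunits of the 4 respiratory chain complexes, cytochrome c and ATP synthase, with 1 assembly factor of complex I whose symbol begins like those of the subunits. The rule goes by gene name and uses no measured value. Members were all probes that the platform annotation assigns to a single gene whose updated symbol begins with Nduf, Uqcr, Cox4 to Cox8 or Atp5, or is Sdha, Sdhb, Sdhc, Sdhd, Cyc1 or Cycs. The rule found 49 probes of 48 genes among 4190 probes and 3939 genes with 1 symbol on an array of 7200 probes. These were 17 genes of complex I, the assembly factor Ndufaf3, 3 of complex II, 4 of complex III, Cycs, 11 of complex IV and 11 of complex V. In the current rat genome table, 120 protein-coding symbols fit the same rule, so the array covered part of the machinery. Each of the 48 genes had a value on every array and none was filtered out. Cox7a2l was the 1 member with 2 probes.

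Rats had received lipopolysaccharide (LPS), an outer membrane molecule of Gram-negative bacteria and a ligand of Toll-like receptor 4, and their total RNA was put on arrays; only the series title names blood as the tissue. The 2 h group held rats 1, 2 and 3 and the 6 h group held rats 2, 4 and 6. Each rat was compared, on 1 array called fluor and 1 called flip, with a pool of control RNA of its own time. The 12 arrays therefore stand for 6 rats, and whether the rats numbered 2 are a single animal is not given. Strain, sex, age, dose and route of LPS, and the number and treatment of the animals in a pool, were not stated. A ratio holds no level, so the tissue could not be checked by the presence of blood cell genes, and in whole tissue RNA a loss of cells of a type and a loss of RNA per cell cannot be told apart.

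Every value below is a log2 ratio, averaged over both arrays of a rat with their signs as deposited, and is read as LPS over the control pool. That direction is likely and not settled, because the dyes are not given and a rat's fluor array correlated with its flip array at only -0.23 to 0.25 over all probes. For the probes of the 48 genes the same correlations were 0.57, 0.55 and 0.017 for rats 1, 2 and 3 of 2 h, and 0.46, 0.21 and 0.47 for rats 2, 4 and 6 of 6 h, given as a description over probes that share arrays. Il1b, Il1r2, Irf1, Lcn2 and Zfp36, textbook targets of LPS, lay above 0 on all 12 arrays, whereas Sod2 did so on 10, Tnf on 8 and Nfkbia on 3. Fluor and flip means of Il1b, the largest of these, were 4.20 and 3.60 at 2 h and 2.26 and 1.83 at 6 h. For the genes above 0 on all 12 arrays, multiplying the flip arrays by -1 would leave each rat with opposite signs. Errors are standard deviations (SD) over 3 rats unless a standard error (SE) is named. A gene is said to have risen or fallen where the limma p-value, adjusted over all 3939 genes, was under 0.05. The control pool enters each ratio as 1 sample, so its own spread is left out of these tests.

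Oxidative phosphorylation couples the oxidation of nutrients to the making of ATP in the inner mitochondrial membrane. Complex I takes electrons from NADH and complex II takes them from succinate; ubiquinone carries them to complex III, and cytochrome c carries them on to complex IV, which reduces oxygen to water. Complexes I, III and IV pump protons, and the return of these protons through complex V drives the synthesis of ATP. Among blood cells, mature red cells of mammals have no mitochondria, neutrophils rely mainly on glycolysis, and lymphocytes, monocytes, platelets and reticulocytes carry mitochondria.

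After LPS, most genes of the machinery did not pass the test, and those that fell were spread over complexes I, III, IV and V. At 2 h, Ndufb4 of complex I and Atp5f1b and Atp5pf of complex V fell, and Sdha of complex II and Uqcrfs1 of complex III rose. At 6 h the same 3 genes fell together with Ndufa6, Ndufa9, Uqcrc1, Uqcrc2, Cox7a2l and Atp5f1c, and none of the 48 rose. As deposited, the largest falls were 1.52-fold for Ndufb4 at 2 h and 1.63-fold for Atp5f1b at 6 h, and the smallest of the 9 at 6 h was 1.08-fold for Uqcrc1. With the flip arrays multiplied by -1, Ndufb4 at 2 h was at -0.12 (adjusted p = 0.221) and Atp5f1b at 6 h was at 0.25 (adjusted p = 0.0171).

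Of the 48 genes, 2 rose and 3 fell at 2 h, where 9.34% of all genes rose and 9.82% fell. At 6 h, 0 rose and 9 fell, where 8.3% of all genes rose and 10.7% fell. An unadjusted p under 0.05, in either direction, was found for 15 of the 48 genes at 2 h (31.3%, beside 36.3% of all genes) and for 18 at 6 h (37.5%, beside 36.9%). The share of calls among the 48 was thus below that of the array in both directions at 2 h, and at 6 h below it for rises and above it for falls. The median over the 48 genes was -0.022 at 2 h and -0.051 at 6 h, beside -0.0070 and 0.0069 over all genes. Single rats had medians from -0.039 to -0.019 at 2 h and from -0.067 to -0.049 at 6 h. All 3 rats lay below 0 for 17 of the 48 genes at 2 h and for 22 at 6 h, 35.4% and 45.8%, beside 29.6% and 30.2% of all genes. All 3 rats lay above 0 for 8 and 6 of the 48, 16.7% and 12.5%, beside 28.7% and 31.2% of all genes. Of the 48 genes, 37 passed the test at neither time, and the 3 that passed at both times did so with the same sign.

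**Figure D1:**
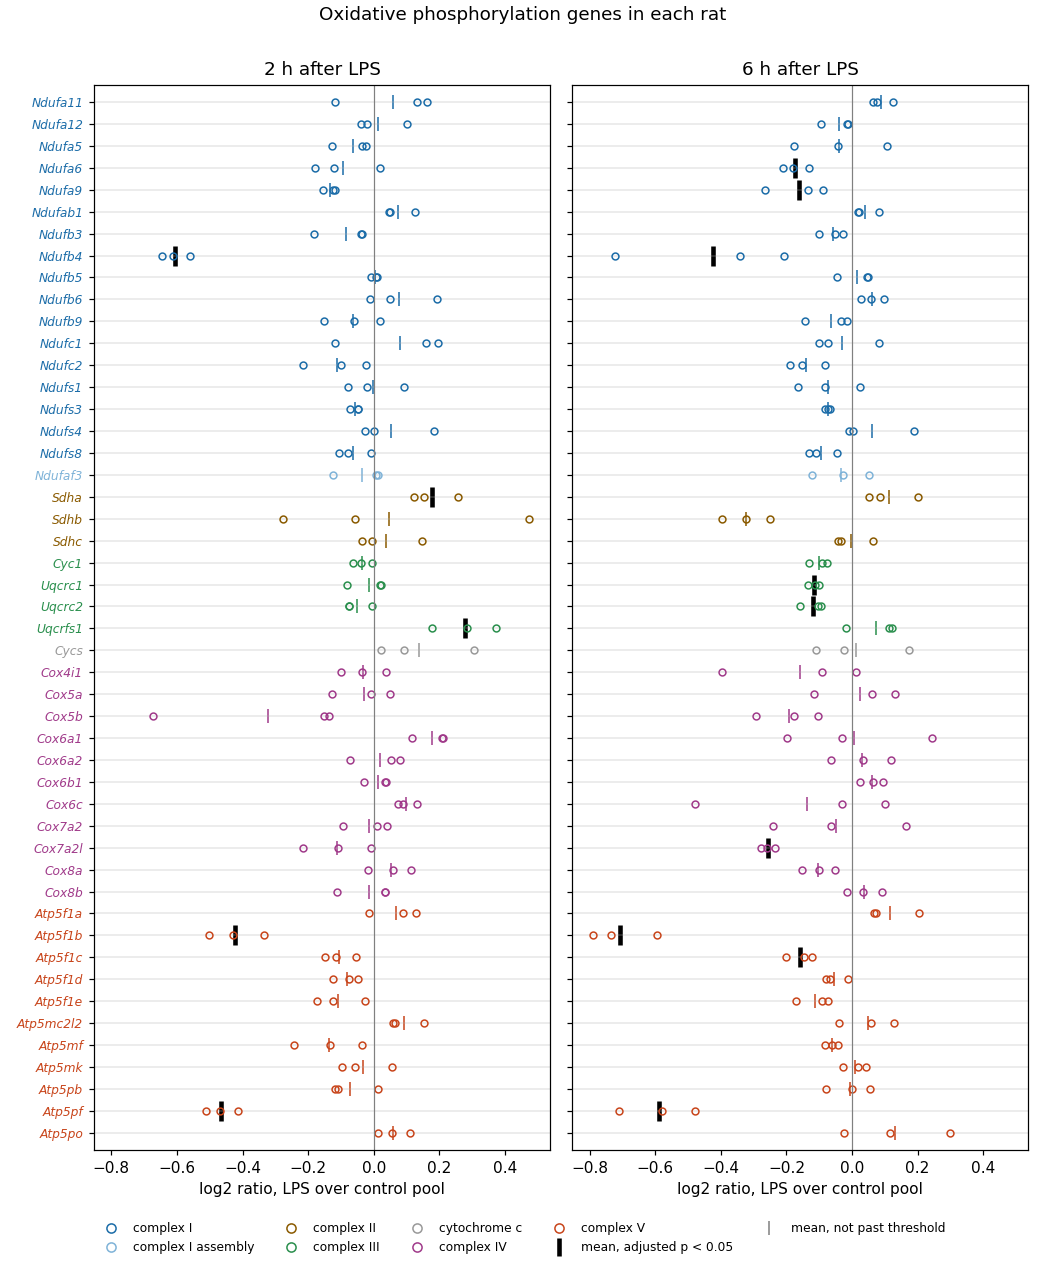
Each open circle is the log2 ratio of 1 rat (mean of its fluor and flip arrays) for 1 gene, at 2 h on the left and 6 h on the right, with genes grouped and coloured by complex; a thick black bar is a mean with an adjusted p under 0.05 and a thin bar a mean that did not pass. Most genes sit within a narrow band around 0, while Ndufb4, Atp5f1b and Atp5pf lie to its left at both times with no rat above -0.20.

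Ndufb4, Atp5f1b and Atp5pf, the genes that fell at both times, are encoded in the nucleus, and the bases before their transcription starts are shown because nuclear respiratory genes are known for shared promoter elements. The promoters were taken from RefSeq (build GRCr8) and cover the 250 bases before the start, read 5′ to 3′ on the strand of the gene. Ndufb4 lies at chr11:76568928-76569177 on the plus strand, Atp5f1b at chr7:1099808-1100057 on the plus strand and Atp5pf at chr11:37375102-37375351 on the minus strand. Capitals mark the motifs found, on either strand, among those searched.
Ndufb4: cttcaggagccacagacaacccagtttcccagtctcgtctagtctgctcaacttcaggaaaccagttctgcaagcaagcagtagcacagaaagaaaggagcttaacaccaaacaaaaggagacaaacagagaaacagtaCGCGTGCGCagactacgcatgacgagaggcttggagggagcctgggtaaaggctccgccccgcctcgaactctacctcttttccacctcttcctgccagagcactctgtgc
Atp5f1b: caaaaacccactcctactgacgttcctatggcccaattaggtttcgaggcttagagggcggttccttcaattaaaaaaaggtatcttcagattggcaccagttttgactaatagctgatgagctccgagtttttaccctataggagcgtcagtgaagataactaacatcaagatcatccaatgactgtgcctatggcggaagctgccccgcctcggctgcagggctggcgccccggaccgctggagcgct
Atp5pf: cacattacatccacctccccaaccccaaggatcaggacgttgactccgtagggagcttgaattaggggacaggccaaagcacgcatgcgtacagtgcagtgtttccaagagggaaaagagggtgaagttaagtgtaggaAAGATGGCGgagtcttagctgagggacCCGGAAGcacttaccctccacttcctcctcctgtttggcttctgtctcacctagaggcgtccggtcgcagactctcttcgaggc
Ndufb4 held the core of the site of NRF1, a regulator of respiratory genes, 111 bases before the start. Atp5pf held the YY1 motif 111 bases before the start and the core of the site of GABP, also called NRF-2, at 84 bases before it. Atp5f1b held none of the motifs searched.

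The same search, of both strands from 250 bases before to 50 after the start, was run on the 44 of 48 genes with a promoter in the table (Cox6a1, Cox6c, Cyc1 and Ndufb9 had none). GCGCANGCG, the NRF1 core, was found in 11 of the 44 (25.0%) and in 5.80% of all 33469 promoters. CCGGAAG, the GABP core, was in 12 (27.3%) beside 8.75% of all promoters. AAGATGGCG, a YY1 motif, was in 6 (13.6%) beside 1.73%. AAGGTCA, an element bound by estrogen-related receptors, was in 4 (9.09%) beside 4.61%. Among 21842 promoters of protein-coding genes these shares were 7.62%, 10.7%, 2.07% and 3.78%. In this wider window Ndufb4 held a further NRF1 core and AAGGTCA after the start. Of the genes that passed the test at either time, Atp5f1c, Cox7a2l, Ndufa6, Ndufb4, Sdha and Uqcrc1 held the NRF1 core and Atp5pf, Ndufa6 and Uqcrc2 the GABP core. Cycs, Ndufa5, Ndufa11, Ndufa12 and Atp5po held the NRF1 core too and passed at neither time. So did Atp5f1a, Atp5mk, Cox4i1, Cox5b, Cox7a2, Cox8a, Ndufs1, Ndufs8 and Sdhb with the GABP core. The matches are a description of letters, and no relation between motifs and calls was tested.

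Complex I, NADH:ubiquinone oxidoreductase, is the largest complex of the chain and has a peripheral arm in the matrix and an arm in the membrane. Of its 17 genes measured, 1 fell at 2 h and 3 fell at 6 h, and 0 rose at either time. Of all genes, 9.82% fell at 2 h and 10.7% at 6 h, and 9.34% and 8.3% rose. Its median was -0.057 at 2 h and -0.059 at 6 h.

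Ndufb4 is a supernumerary subunit of the membrane arm. Its ratios were -0.65, -0.61 and -0.56 in rats 1, 2 and 3 at 2 h, and -0.72, -0.21 and -0.34 in rats 2, 4 and 6 at 6 h. The 2 h rats lay close together, whereas the 6 h rats straddled them and spread more widely. The mean was -0.61 ± 0.04 at 2 h (1.52-fold lower, adjusted p = 0.00486) and -0.42 ± 0.27 at 6 h (1.34-fold lower, adjusted p = 0.0175). It was below 0 on 12 of 12 arrays as deposited; with the flip arrays multiplied by -1 its means were -0.12 and -0.0071 (adjusted p = 0.221 and 0.939). Without rat 6 the call at 6 h was lost, at a mean of -0.47 and an adjusted p of 0.0528. The genome table lists 7 symbols that name pseudogenes of Ndufb4 and 4 that name Ndufb4-like genes; whether the probe also binds their transcripts was not tested.

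Ndufa6, a small subunit of the LYR protein family in the peripheral arm, and Ndufa9, a subunit at the junction of both arms, fell at 6 h by less. Ndufa6 was at -0.12, -0.18 and 0.020 at 2 h and at -0.18, -0.21 and -0.13 at 6 h, so that 1 rat at 2 h and none at 6 h lay above 0. Its mean was -0.093 ± 0.103 at 2 h (adjusted p = 0.160) and -0.17 ± 0.04 at 6 h (adjusted p = 0.0323). Ndufa9 was at -0.15, -0.12 and -0.12 at 2 h and at -0.27, -0.14 and -0.088 at 6 h, with every rat below 0. Its mean was -0.13 ± 0.02 at 2 h (adjusted p = 0.0538) and -0.16 ± 0.09 at 6 h (adjusted p = 0.0279). The 6 h call of Ndufa6 was lost without rat 2, 4 or 6 of that time (adjusted p = 0.152, 0.142 and 0.0777) or rat 1 of 2 h (0.0535), and that of Ndufa9 without rat 2 or 4 (adjusted p = 0.150 and 0.0854). Ndufa6 also lost it on the flip arrays alone (adjusted p = 0.198), and Ndufa9 on the fluor arrays alone (adjusted p = 0.158).

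The 3 core subunits of the peripheral arm that were measured did not pass the test at either time. Ndufs1, which carries iron-sulfur clusters of the NADH-oxidising module, was at -0.078, 0.094 and -0.020 at 2 h and at -0.17, 0.026 and -0.082 at 6 h. Its rats fell on both sides of 0 at each time. Ndufs3, a core subunit next to the site of ubiquinone, was at -0.047, -0.049 and -0.074 at 2 h and at -0.082, -0.072 and -0.068 at 6 h. All 6 of its values lay below 0 and within a narrow range (adjusted p = 0.162 and 0.0872). Ndufs8, which carries iron-sulfur clusters on the path to ubiquinone, was at -0.0091, -0.078 and -0.11 at 2 h and at -0.11, -0.13 and -0.046 at 6 h. It too lay below 0 in all 6, with adjusted p-values of 0.201 and 0.0823.

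The other 11 subunits of complex I also did not pass. Ndufa5, Ndufa12 and Ndufs4 of the peripheral arm had means of -0.062, 0.014 and 0.052 at 2 h and -0.038, -0.041 and 0.061 at 6 h. Among the membrane arm genes Ndufa11, Ndufb3, Ndufb5, Ndufb6, Ndufb9, Ndufc1 and Ndufc2, means at 2 h ran from -0.11 for Ndufc2 to 0.079 for Ndufc1. At 6 h they ran from -0.14 for Ndufc2 (adjusted p = 0.0615) to 0.088 for Ndufa11. Ndufab1, the mitochondrial acyl carrier protein that also serves fatty acid synthesis, was at 0.074 ± 0.045 and 0.041 ± 0.036. Ndufaf3, an assembly factor that is not part of the finished complex, was at -0.035 ± 0.077 and -0.033 ± 0.087. A probe that the annotation assigns to both Ndufv3 and its pseudogene was left out by the rule; it averaged -0.089 ± 0.083 at 2 h and -0.099 ± 0.036 at 6 h.

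Complex II, succinate dehydrogenase, is also an enzyme of the citric acid cycle, and 3 of its 4 subunits were measured. Sdha, the flavoprotein that oxidises succinate, rose at 2 h, and the other 2 did not pass at either time. Sdha was at 0.15, 0.26 and 0.12 at 2 h and at 0.084, 0.20 and 0.051 at 6 h. All 6 rats lay above 0, and the ranges of the 2 times overlapped. The mean was 0.18 ± 0.07 at 2 h (1.13-fold higher, adjusted p = 0.0280) and 0.11 ± 0.08 at 6 h (adjusted p = 0.0987). This call at 2 h was lost without rat 1, 2 or 3 of that time (adjusted p = 0.0760, 0.133 and 0.0513) and without rat 2 of 6 h (0.0512). On the 2 h flip arrays alone the mean was 0.085 (adjusted p = 0.268), beside 0.27 on the fluor arrays.

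Sdhb, the iron-sulfur subunit of complex II, had 1 array far from the others at 2 h. It was at -0.058, -0.28 and 0.47 at 2 h and at -0.32, -0.25 and -0.40 at 6 h. The high value of rat 3 came from its flip array at 1.42, while its fluor array was at -0.47. The mean was 0.047 ± 0.386 at 2 h (adjusted p = 0.807) and -0.32 ± 0.07 at 6 h (1.25-fold lower, adjusted p = 0.108), with all 6 arrays below 0 at 6 h. Without rat 3 of 2 h, which also enters the shared estimate of the spread, Sdhb fell at 6 h (adjusted p = 0.00959) and its 2 h mean was -0.17; with each time fitted alone it also fell at 6 h (adjusted p = 0.00595). Sdhc, a membrane anchor of the complex, was at 0.036 ± 0.098 and -0.0042 ± 0.0604.

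Complex III passes electrons from ubiquinol to cytochrome c through the Rieske iron-sulfur protein Uqcrfs1 and cytochrome c1, the product of Cyc1. Uqcrfs1 rose at 2 h, and the core proteins Uqcrc1 and Uqcrc2, which are relatives of the mitochondrial processing peptidase, fell at 6 h. Uqcrfs1 was at 0.28, 0.37 and 0.18 at 2 h and at 0.12, -0.017 and 0.11 at 6 h, so that the 6 h rats all lay below the 2 h rats. The mean was 0.28 ± 0.10 at 2 h (1.21-fold higher, adjusted p = 0.00850) and 0.073 ± 0.078 at 6 h (adjusted p = 0.293). It lay above 0 on 11 of 12 arrays. On the fluor arrays alone the 2 h mean was 0.16 and the call was lost (adjusted p = 0.0732).

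Uqcrc1 was at -0.082, 0.022 and 0.018 at 2 h and at -0.13, -0.10 and -0.11 at 6 h. Uqcrc2 was at -0.075, -0.076 and -0.0064 at 2 h and at -0.10, -0.16 and -0.095 at 6 h. For both, the 6 h rats were close together and all lay below the 2 h rats. The 6 h means were -0.12 ± 0.02 (adjusted p = 0.0447) and -0.12 ± 0.03 (adjusted p = 0.0355), and both calls were lost on leaving out any single 6 h rat, with adjusted p-values from 0.0945 to 0.203. That of Uqcrc1 was also lost without rat 3 of 2 h (0.0570) and that of Uqcrc2 without rat 1 of 2 h (0.0630). On the 6 h fluor arrays alone Uqcrc1 was at -0.042 (adjusted p = 0.425). On the 6 h flip arrays alone Uqcrc2 was at -0.045 (adjusted p = 0.485). Cyc1 was at -0.040, -0.062 and -0.0066 at 2 h and at -0.13, -0.092 and -0.075 at 6 h, also without overlap, and its 6 h mean of -0.10 ± 0.03 had an adjusted p of 0.0506, and of 0.0464 without rat 2 of 2 h.

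Cycs encodes cytochrome c, the carrier between complexes III and IV that also triggers apoptosis when it leaves the mitochondrion. It was at 0.091, 0.30 and 0.022 at 2 h and at 0.17, -0.11 and -0.025 at 6 h, and passed at neither time (adjusted p = 0.188 and 0.907). Its fluor and flip arrays stood apart, with means of 0.0034 and 0.28 at 2 h and of -0.27 and 0.30 at 6 h.

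Complex IV, cytochrome c oxidase, has its catalytic centres in subunits encoded by mitochondrial DNA, which were not analysed here. Of the 11 genes measured, Cox7a2l alone passed, at 6 h. Cox7a2l encodes a factor that joins complexes III and IV into supercomplexes. It was at -0.22, -0.11 and -0.0098 at 2 h and at -0.26, -0.24 and -0.28 at 6 h, and every 6 h rat lay below every 2 h rat. The mean was -0.11 ± 0.10 at 2 h (adjusted p = 0.0993) and -0.26 ± 0.02 at 6 h (1.20-fold lower, adjusted p = 0.00658). Its 2 probes gave 6 h means of -0.23 and -0.29 and 2 h means of -0.074 and -0.15.

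Of the other subunits of complex IV, Cox5b lay below 0 on all 12 arrays without passing. It was at -0.14, -0.15 and -0.67 at 2 h, where the value of rat 3 rested on a fluor array at -1.23, and at -0.10, -0.18 and -0.29 at 6 h. Its means were -0.32 ± 0.31 (adjusted p = 0.0679) and -0.19 ± 0.10 (adjusted p = 0.221). Cox6c lay above 0 on all 6 arrays at 2 h, at 0.099 ± 0.031, while at 6 h rat 4 was at -0.48 through a fluor array at -0.94. The ubiquitous forms Cox6a1, Cox7a2 and Cox8a had means of 0.18, -0.014 and 0.051 at 2 h and 0.0049, -0.048 and -0.10 at 6 h. The forms known from heart and muscle, Cox6a2 and Cox8b, were at 0.020 and -0.015 at 2 h and 0.030 and 0.037 at 6 h. Cox4i1, Cox5a and Cox6b1 were at -0.033, -0.029 and 0.014 at 2 h and at -0.16, 0.025 and 0.061 at 6 h.

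**Figure D2:**
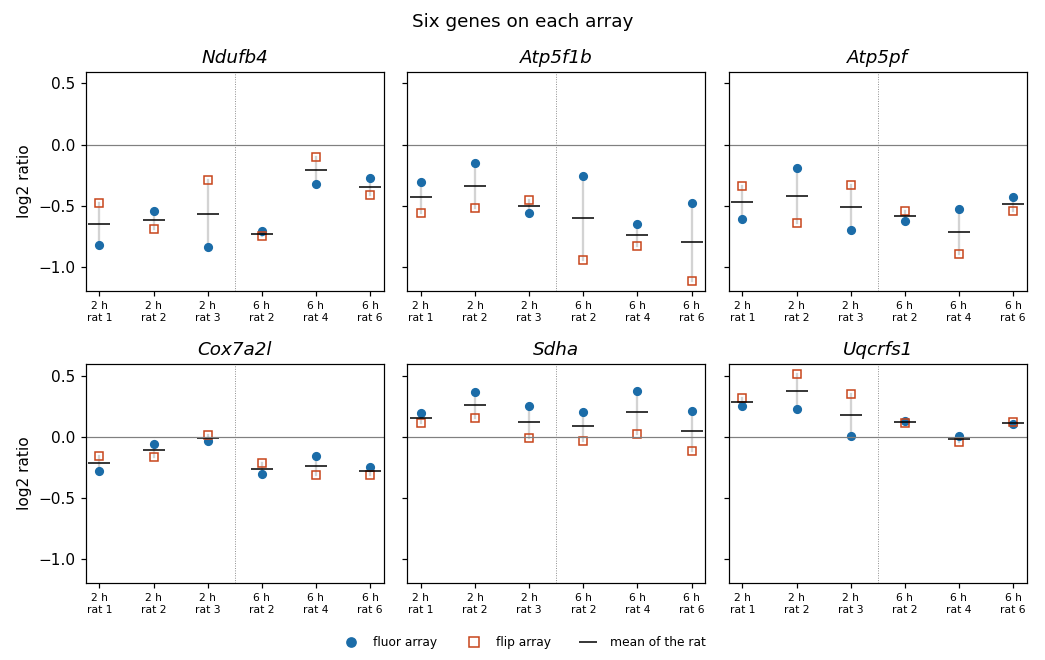
Log2 ratios of 6 genes on every array: filled circles are fluor arrays, open squares flip arrays, and horizontal lines the mean of a rat, with 2 h rats left and 6 h rats right of the dotted line. Ndufb4, Atp5f1b and Atp5pf lie below 0 on all 12 arrays, Uqcrfs1 lies above 0 on 11, and Sdha lies above 0 on 9, with its fluor arrays higher than its flip arrays in every rat.

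Complex V, ATP synthase, has a catalytic head, a rotating central stalk, a peripheral stalk that holds the head still, and a ring in the membrane. Of its 11 genes, 2 fell at 2 h and 3 fell at 6 h, beside 9.82% and 10.7% of all genes. Atp5f1b encodes the beta subunit, which holds the catalytic sites of the head. It was at -0.43, -0.33 and -0.50 at 2 h and at -0.60, -0.74 and -0.79 at 6 h, and every 6 h rat lay below every 2 h rat. The mean was -0.42 ± 0.08 at 2 h (1.34-fold lower, adjusted p = 0.00191) and -0.71 ± 0.10 at 6 h (1.63-fold lower, adjusted p = 0.000201). At 6 h its fluor arrays averaged -0.46 and its flip arrays -0.96, all below 0.

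Atp5pf encodes coupling factor 6 of the peripheral stalk. It was at -0.47, -0.41 and -0.51 at 2 h and at -0.58, -0.71 and -0.48 at 6 h, with overlap between the times. The mean was -0.46 ± 0.05 at 2 h (1.38-fold lower, adjusted p = 0.00120) and -0.59 ± 0.12 at 6 h (1.51-fold lower, adjusted p = 0.000332), and 12 of 12 arrays lay below 0. The genome table lists 4 pseudogene symbols of Atp5pf and 2 of Atp5f1b, and binding of their transcripts to the probes was not tested.

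Atp5f1c, the gamma subunit of the central stalk, was at -0.15, -0.054 and -0.12 at 2 h and at -0.15, -0.12 and -0.20 at 6 h. It fell at 6 h (mean -0.16 ± 0.04, adjusted p = 0.0165) and was below 0 in all 3 rats at 2 h without passing (adjusted p = 0.0599). The 6 h call was lost without rat 2 or 6 (adjusted p = 0.0863 and 0.0896) and on the fluor arrays alone (adjusted p = 0.161). Atp5f1a, the alpha subunit that alternates with beta in the head, was at 0.089, 0.13 and -0.015 at 2 h and at 0.20, 0.068 and 0.072 at 6 h. Its means of 0.067 ± 0.074 and 0.12 ± 0.08 did not pass (adjusted p = 0.279 and 0.0949), and they lay on the other side of 0 from those of beta.

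Atp5f1d and Atp5f1e, the delta and epsilon subunits of the central stalk, were at -0.082 and -0.11 at 2 h and at -0.054 and -0.11 at 6 h, with every rat below 0 and no call. In the peripheral stalk, Atp5pb, the b subunit, was at -0.071 and -0.0071, and Atp5po, the subunit named for the oligomycin sensitivity it confers, was at 0.060 and 0.13. Among the 3 peripheral stalk genes measured, Atp5pf alone passed. In the membrane part, Atp5mf, the f subunit, lay below 0 on all 12 arrays at means of -0.14 ± 0.10 (adjusted p = 0.0583) and -0.062 ± 0.021. Atp5mk was at -0.032 and 0.0099, and Atp5mc2l2, whose name marks it as like a gene of the c ring, was at 0.092 and 0.048.

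**Figure D3:**
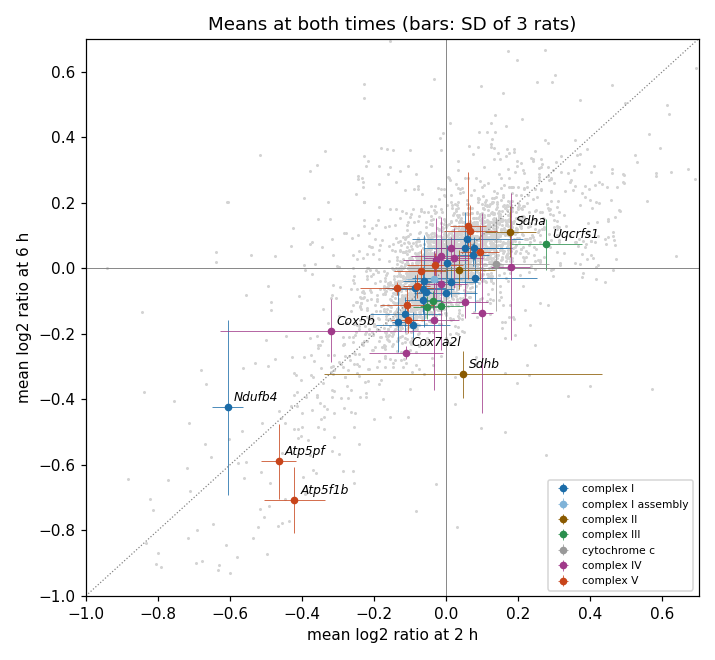
Mean log2 ratio at 6 h (vertical axis) against 2 h (horizontal axis) for each gene of oxidative phosphorylation, coloured by complex, with bars of 1 SD over 3 rats; grey points are the other genes of the array that lie within the axes, and the dotted line marks equal means. Atp5f1b and Atp5pf lie below the dotted line and Ndufb4 above it, all 3 far from the cloud of the other members.

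The difference between 6 h and 2 h asks whether the response changed between the times, and it also holds any difference between the control pools, so time and pool cannot be told apart. None of the 48 genes passed, with limma and a threshold of 0.05 on the adjusted p; over all genes, 0.33% rose and 0.178% fell. At an unadjusted p under 0.05 there were 4 of the 48 genes (8.33%) and 14.5% of all genes. These were Atp5f1b with a difference of -0.29 (SE 0.07, adjusted p = 0.117), Uqcrfs1 with -0.21 (SE 0.07, adjusted p = 0.225), Cox8a with -0.15 (SE 0.05, adjusted p = 0.239) and Cox7a2l with -0.15 (SE 0.06, adjusted p = 0.320). Rats of the 2 times did not overlap for 7 of the 48 genes (14.6%), namely Cyc1, Uqcrc1, Uqcrc2, Uqcrfs1, Cox7a2l, Cox8a and Atp5f1b, and for 21.7% of all genes. The share among the 48 was thus below that of all genes. In each of these 7 the 6 h rats were the lower ones, and the 4 genes of complex III were among them. How often the 6 h rats were the lower ones among all genes without overlap was not counted. The difference for Ndufb4 was 0.18 (SE 0.12) and for Atp5pf -0.13 (SE 0.07).

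The calls depend on how the flip arrays are read. Turning them would give Il1b, above 0 on all 12 arrays as deposited, opposite signs on the 2 arrays of each rat. With the flip arrays multiplied by -1 before averaging, 0 of the 5 calls at 2 h kept their sign and passed. Of the 9 at 6 h, Ndufa6 kept its call, at -0.077, and Atp5f1b and Uqcrc1 passed with the other sign, at 0.25 and 0.074. The same quantity measures how far the fluor and flip arrays of a gene stand apart under the deposited reading. By that test 6 of the 48 genes differed between orientations at 2 h (12.5%, beside 14.2% of all genes). At 6 h 23 of the 48 did (47.9%, beside 37.1%), 13 with the fluor arrays higher and 10 with the flip arrays higher. Besides Atp5f1b, those at 6 h included Cycs (-0.27 fluor, 0.30 flip), Cox6a1 (0.21 and -0.20), Cox8a (0.11 and -0.31), Cox4i1 (0.043 and -0.36), Sdhc (0.18 and -0.19) and Sdha (0.26 and -0.039). All arrays were on the same side of 0 for 5 of the 48 genes (10.4%), Ndufb4, Atp5f1b, Atp5pf, Atp5mf and Cox5b, and for 10.3% of all genes.

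**Figure D4:**
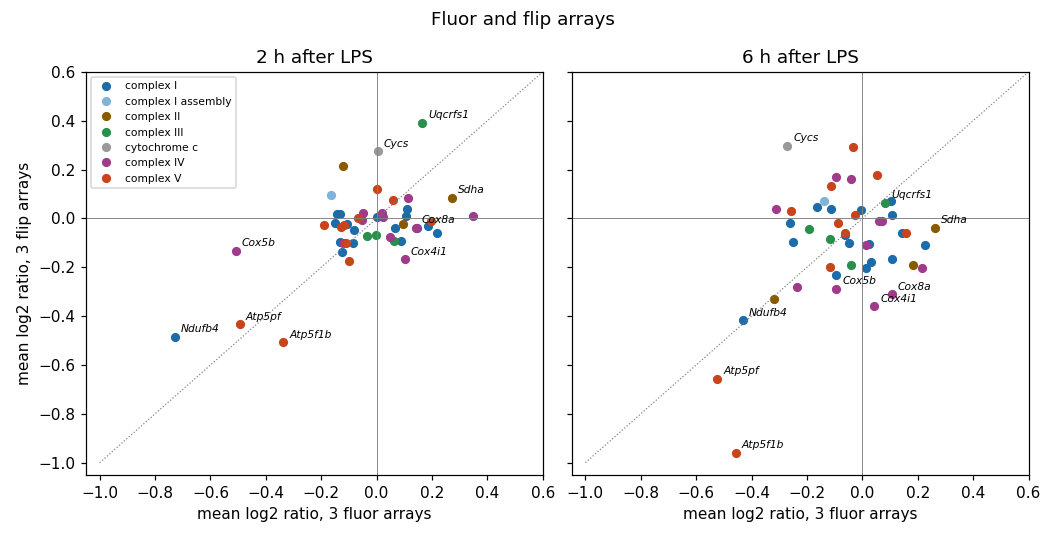
Mean log2 ratio of the 3 flip arrays (vertical axis) against that of the 3 fluor arrays (horizontal axis) for each gene, at 2 h on the left and 6 h on the right; the dotted line marks equal means and colours are complexes. Ndufb4, Atp5f1b and Atp5pf lie in the lower left of both panels, while at 6 h Cycs is below 0 on the fluor arrays and above 0 on the flip arrays and Cox8a is the reverse.

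Scaling moved the split of the calls at 2 h. With arrays quantile normalized before averaging, 2 genes rose and 7 fell at 2 h, beside 2 and 3 as deposited. The share of all genes called was 22.6% beside 19.2%, with 488 that rose and 401 that fell beside 368 and 387. At 6 h 0 of the members rose and 11 fell, and the share of all genes was 20.6% beside 19.0%. With arrays scaled, 3 rose and 6 fell at 2 h and 0 rose and 9 fell at 6 h. Leaving out a 6 h rat lowered the calls at 6 h from 9 to 4 without rat 2, to 5 without rat 4 and to 4 without rat 6, while the share of all genes called went from 19.0% to 7.77%, 10.5% and 9.90%. Atp5f1b, Atp5pf and Cox7a2l passed at 6 h in each of these.

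Other mitochondrial genes gave a context to the members, and 29 of 85 listed were measured. They were assembly factors, citric acid cycle enzymes, carriers, import proteins and others such as Yy1, Sod2, Ucp2 and Hspe1. At 2 h 1 rose and 4 fell, and at 6 h 0 rose and 5 fell, with medians of -0.0023 and -0.0080. Of all genes, 9.34% rose and 9.82% fell at 2 h, and 8.3% rose and 10.7% fell at 6 h. Surf1, an assembly factor of complex IV, rose at 2 h (0.27 ± 0.12). Oxa1l, which inserts proteins into the inner membrane, fell at both times (-0.17 ± 0.07 and -0.15 ± 0.05), as did Phb2, a prohibitin of that membrane (-0.22 ± 0.13 and -0.31 ± 0.07), and Idh3g, a subunit of isocitrate dehydrogenase (-0.15 ± 0.04 and -0.21 ± 0.04). Suclg1, of succinyl-CoA synthetase, fell at 2 h (-0.13 ± 0.07). Mdh2, malate dehydrogenase, and Chchd4, of the import path into the intermembrane space, fell at 6 h (-0.18 ± 0.06 and -0.12 ± 0.04). Citrate synthase, Cs, a common measure of mitochondrial content, was at 0.015 ± 0.052 and 0.053 ± 0.011, with adjusted p-values of 0.749 and 0.247.

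Genes of glucose uptake and glycolysis that passed were all higher after LPS. Of 13 measured of 23 listed, 4 rose and 0 fell at 2 h, and 3 rose and 0 fell at 6 h. Among all genes 9.34% rose and 9.82% fell at 2 h, and 8.3% rose and 10.7% fell at 6 h. Aldoc, an aldolase, was at 1.32, 1.28 and 1.16 at 2 h and at 1.67, 1.61 and 1.62 at 6 h, with means of 1.25 ± 0.08 (adjusted p = 6.7e-06) and 1.63 ± 0.03 (adjusted p = 3.06e-06). It was the 1 gene of the list that also passed for 6 h minus 2 h (0.38, SE 0.05, adjusted p = 0.0408). The glucose transporters Slc2a3 and Slc2a1 rose at both times, Slc2a3 to 0.78 ± 0.33 and 0.46 ± 0.20 and Slc2a1 to 0.14 ± 0.03 and 0.42 ± 0.05. Hk1, a hexokinase, rose at 2 h (0.26 ± 0.09). The medians of the list, -0.00086 and 0.049, were near 0, since the other genes of the path did not pass; Ldha, lactate dehydrogenase, was at -0.034 ± 0.070 and 0.0042 ± 0.1060.

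Markers of blood cell types shifted beside these genes. Their counts stand beside 9.34% of all genes that rose and 9.82% that fell at 2 h, and 8.3% and 10.7% at 6 h. Of 4 T cell markers measured of 11 listed, 0 rose and 2 fell at each time (Cd3d and Lef1), with rat medians from -0.30 to -0.23 at 2 h and from -0.43 to -0.15 at 6 h. Of 2 B cell markers of 7, 2 fell at 2 h and 1 at 6 h, with rat medians from -0.33 to -0.23 and from -0.43 to -0.38. Of 3 monocyte and macrophage markers of 8, 1 fell at 2 h and 2 at 6 h, with rat medians from -0.22 to -0.16 and from -0.23 to -0.10. Of 5 neutrophil markers of 15, 3 rose and 1 fell at 2 h and 3 rose at 6 h, with rat medians from 0.43 to 0.59 and from 0.51 to 0.62. The 3 that rose were S100a9, Il1r2 and Lcn2 at both times, and Il1r2 and Lcn2 are also among the textbook targets of LPS named above. S100a9 was at 2.98 ± 0.53 and 2.70 ± 0.44, while S100a8, its partner, was at -0.083 ± 0.102 and -0.053 ± 0.073. Hdc, which fell at 2 h, was at -0.15 ± 0.09 and -0.034 ± 0.041. Of 3 natural killer and cytotoxic markers of 7, 2 rose at each time, with rat medians from 0.25 to 0.55 and from 0.21 to 0.30. They were Gzmc and Il2rb at 2 h and Gzmc and Prf1 at 6 h. Of 8 erythroid and reticulocyte markers of 16, 4 rose and 1 fell at 2 h and 2 fell at 6 h. Rat medians ran from 0.11 to 0.47 and from -0.0067 to 0.33. Slc4a1 (0.81 ± 0.21), Car2 (0.58 ± 0.23), Alas2 (0.46 ± 0.22) and Add2 (0.38 ± 0.12) rose at 2 h. The globin gene Hba-a1 fell at both times (-0.14 ± 0.03 and -0.12 ± 0.03), and Hbb fell at 6 h (-0.16 ± 0.11). Epor and Epb42 passed at neither time. Of 2 platelet markers of 7, 1 rose at 2 h and none passed at 6 h, with rat medians from 0.071 to 0.38 and from -0.42 to -0.025. Of the T cell markers, Cd5 was at -0.056 ± 0.108 at 2 h and -0.082 ± 0.061 at 6 h, and Cd3d at -0.39 ± 0.11 and -0.69 ± 0.18. Lef1 was at -0.23 ± 0.12 and -0.28 ± 0.07, and Tcf7 at -0.55 ± 0.46 and -0.083 ± 0.621. At 2 h the fluor arrays of Tcf7 averaged -1.41 and its flip arrays 0.30. Of the B cell markers, Blnk was at -0.13 ± 0.05 and -0.12 ± 0.06, and Cd37 at -0.45 ± 0.08 and -0.71 ± 0.03. The part of cell makeup in the ratios of the respiratory genes was not tested.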

How the data were processed

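Total RNA of 6 LPS-treated rats was compared with control pools of 2 h and 6 h on 12 2-colour arrays, and groups were taken from the labels. The deposited values are log2 ratios, 1 per probe and array; 100% of their powers of 2 were whole multiples of the last decimal place, within a tolerance of 0.05 of that step. No source used here names the dyes, the scanner, the background correction or the normalization, and array medians lay between -0.0202 and 0.0083. The table gives no intensities, so no filter on dim spots could be applied, and the number of arrays limits the precision.

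Probes were named from the platform annotation, with symbols updated in the RefSeq gene table (GRCr8); of 7200 probes 4190 had 1 symbol, 46 had several and 2964 had none, and 4184 had an identifier in that table. Probes of a gene, and then both arrays of a rat, were averaged. Gene means of the 6 rats were fitted with limma 3.58.1 in R 4.3.3 (lmFit and eBayes, 1 model of group means, 4 residual degrees of freedom). Each time was tested against 0 and 6 h against 2 h, with Benjamini-Hochberg adjustment over 3939 genes. The fit was tested on simulated data with 200 changed genes, and no result above rests on this. The errors were drawn independently for each gene and rat. Differences between fluor and flip arrays and the spread of a control pool were therefore not simulated.

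The genes, the lists of other mitochondrial, glycolytic and marker genes, the motifs and the tests were chosen with earlier results of these data known. All members are named. Each rat's values are given for members past the threshold, for subunits that carry catalytic centres and for Cox5b, which is neither. Alternatives were the flip arrays multiplied by -1, 1 orientation alone, 2 further scalings, all arrays with the rat as a random block, repeated values set to missing, the median of 5 neighbouring probes on each side subtracted, robust variances, single probes, each time alone and leaving out each rat.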

Additional observations from a re-analysis of the deposited data

How the results depend on the processing

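Of the 48 genes, 5 passed at 2 h as deposited, where 19.2% of all genes passed. On the fluor arrays alone 8 passed (29.0% of all genes), with arrays scaled 9 (24.2%), with arrays quantile normalized 9 (22.6%), with all arrays and the rat as a random block 8 (28.4%; consensus correlation of the arrays of a rat 0.128) and with neighbouring probes subtracted 8 (20.5%). At 6 h 9 passed as deposited (19.0%), 23 with the flip arrays multiplied by -1 (37.1%), 17 on the flip arrays alone (27.0%; 4 rose and 13 fell), 14 with the random block (28.1%; 2 rose and 12 fell) and 12 on the fluor arrays alone (30.5%; 3 rose and 9 fell). With neighbouring probes subtracted 1 rose and 8 fell at 6 h. Without 1 rat the counts ranged from 4 to 6 at 2 h and from 4 to 11 at 6 h. For 6 h minus 2 h the count was 0 under every alternative run; each time fitted alone gives no such difference. The cause of these changes was not tested. Where a rat was left out, the fit also had fewer samples.

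With the flip arrays multiplied by -1, Atp5f1b (0.0855) and Uqcrfs1 (-0.114), which had passed at 2 h, took the other sign there. At 6 h the genes that had passed and took the other sign were Atp5f1b (0.251), Atp5f1c (0.0413), Atp5pf (0.0662), Cox7a2l (0.0230), Ndufa9 (0.0673) and Uqcrc1 (0.0743). Other genes did not pass at 6 h as deposited but passed with the flip arrays turned, and with the other sign. They were Cycs (-0.283), Ndufs1 (0.104), Ndufs8 (0.107), Atp5mk, Atp5po, Cox4i1, Cox6b1, Cox8a, Cox8b, Ndufc1 and Sdhc. Cox4i1 did so at 2 h too. Of the members given rat by rat, some that passed at a time under neither reading also changed sign. At 2 h these were Atp5f1a, Cyc1, Cycs, Ndufa6, Ndufa9, Ndufs1, Sdhb, Uqcrc1 and Uqcrc2. At 6 h they were Atp5f1a, Cox5b, Ndufs3 and Sdhb. Under the other 16 alternatives Atp5f1b and Atp5pf passed in 16 at both times, Ndufb4 in 16 at 2 h and 15 at 6 h, Cox7a2l in 16 and Uqcrfs1 in 15. Atp5f1c passed in 13, Ndufa6 and Ndufa9 in 11, Sdha in 10, and Uqcrc1 and Uqcrc2 in 9. No paired analysis was possible because the groups share 1 rat number only. No signal over background was at hand, so dim spots could not be marked.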

Other observations

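Sdhaf3, an assembly factor of complex II outside the gene rule and the lists, is given after its values were seen. It was at 0.55, 0.92 and 1.00 in the 2 h rats and at 0.19, 0.51 and -0.34 in the 6 h rats. Its mean was 0.82 ± 0.24 at 2 h (1.77-fold higher, limma adjusted p = 0.0138, above 0 on 6 of 6 arrays) and 0.12 ± 0.43 at 6 h (adjusted p = 0.603). The difference of -0.70 (SE 0.22) between the times did not pass (adjusted p = 0.215). Sdhaf4, of the same complex, was at -0.013 ± 0.048 and -0.11 ± 0.08 and passed at neither time.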
